A study of Drosophila melanogaster with 4 samples.

Results

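The genes examined were 10 regulators of meiotic entry and the cell cycle, taken by name from the 16510 gene names listed for adult testes of Drosophila melanogaster: twe, bol, Rbp4, CycA, CycB, CycB3, stg, Cdk1, rux and polo. Rows were found by the listed name in all 4 gene tables, and Cdk1 was found under its older name cdc2. The 4 libraries of polyadenylated RNA came from 2 samples labelled Su(var)3-9 mutant and 2 of the wild type, each made from 50 testes of males 3 days old kept at 23 °C. Su(var)3-9 encodes a histone methyltransferase of heterochromatin. No source used here gives the allele, its lesion or the strain of the wild type, and the series calls the replicates biological. The values were FPKM, fragment numbers that the authors scaled per length of transcript and by the size of each library, with the bounds of a 95% interval for each value.

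Entry into division is set by Cdk1, a kinase that is active only when bound to a cyclin of the A, B or B3 type. Inhibitory phosphates placed on Cdk1 by Wee1-type kinases are removed by Cdc25 phosphatases, of which Drosophila has String (stg), used in mitosis, and Twine (twe), used in meiosis. Spermatocytes of the fly transcribe many of the genes needed for the meiotic divisions during a long growth phase and hold back their translation until the divisions begin. Boule (bol), an RNA-binding protein of the DAZ family, is needed for the translation of twe, and Rbp4, another RNA-binding protein, holds back the translation of CycB. Roughex (rux) inhibits Cyclin A with Cdk1, and Polo is a kinase that acts in mitosis and in both meiotic divisions. The RNA levels below do not measure translation.

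The mutant-labelled libraries were shallower. The fragments behind their values, estimated from the interval widths, came to 1446647 and 1468278, against 3207719 and 3366747 in the wild-type libraries. Su(var)3-9 itself was listed at 0 FPKM in mutant-labelled replicate 1 and at 7.83 FPKM in mutant-labelled replicate 2, against 7.93 and 9.74 FPKM in the wild-type libraries. Directions are therefore given between libraries as labelled. Wild type replicate 1 stood apart in 6 accessory gland markers, whose summed level was 9.50 and 31.7 FPKM in the mutant-labelled libraries, against 841 FPKM in wild type replicate 1 and 4.42 FPKM in wild type replicate 2. Of these markers 4 and 3 were at 0 in the mutant-labelled libraries, none in wild type replicate 1 and 4 in wild type replicate 2. The testis label was checked by the male germline tubulin gene betaTub85D, which was at 1957 and 1905 FPKM in the mutant-labelled libraries and 1749 and 1845 FPKM in the wild-type libraries. The germline genes nos and aub were listed at 0 in every library, so a listed 0 is not read as absence. In whole testes fewer cells of a type and less RNA per cell cannot be told apart.

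Of the 10 genes, 9 had a mean of at least 1 FPKM and were tested, and stg was not. By limma on log2(FPKM + 1), adjusted by Benjamini-Hochberg over 10784 genes with a threshold of 0.05, polo, CycA and bol fell in the mutant-labelled libraries. None of the 9 rose, also at an unadjusted limma p under 0.05, which 19.7% of all genes passed in that direction. Among all genes tested 8.67% were called lower and 11.4% higher. The median log2 fold change was -0.26 over the 9 genes and -0.0075 over all genes tested. The values of the libraries did not overlap between genotypes for 5 genes that were lower (polo, CycA, bol, CycB3 and Cdk1) and 1 that was higher (rux), where 32.7% and 32.2% of all genes tested showed no overlap in these directions. With 2 libraries against 2, an exact permutation test of a single gene cannot go below p = 0.33, two-sided, so each call rests on the spread that limma shares across genes.

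**Figure D1:**
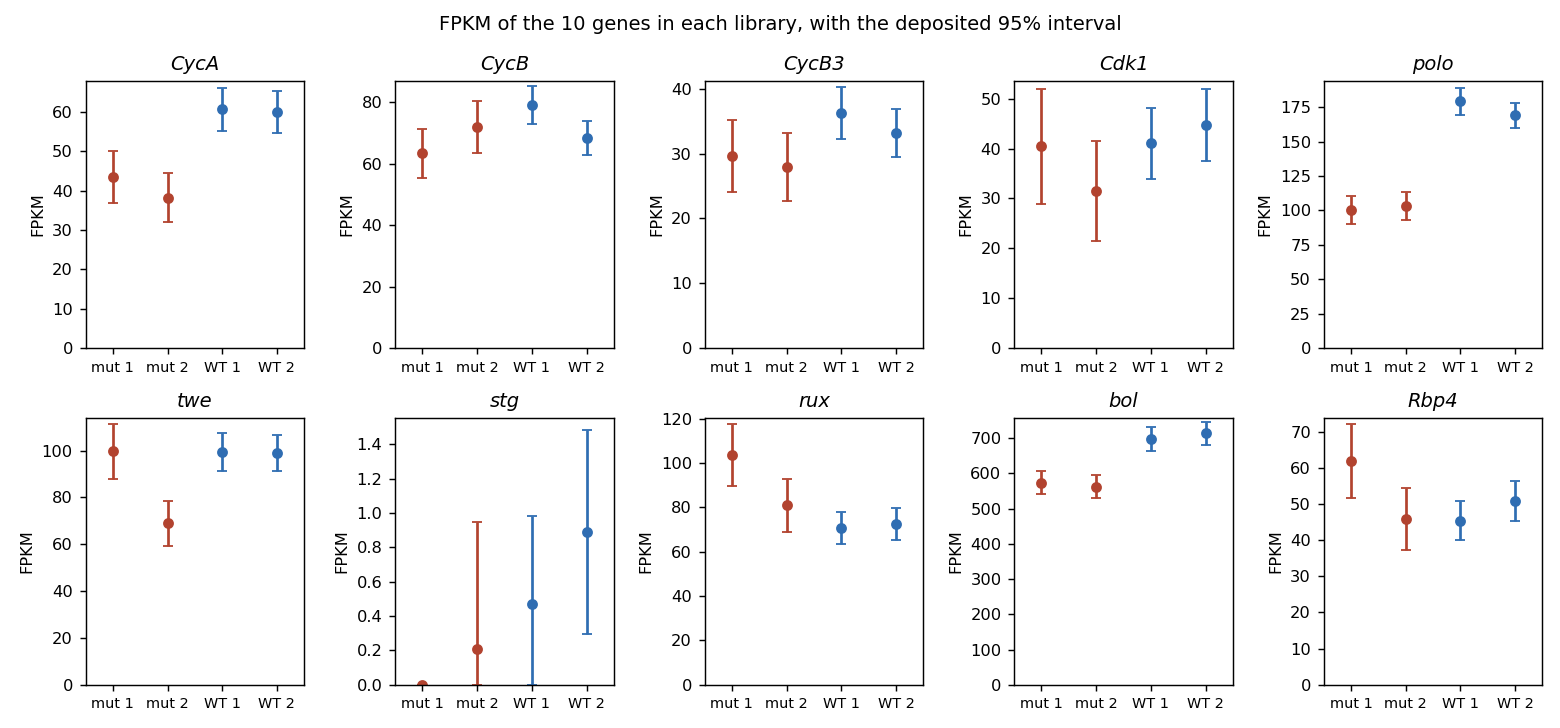
FPKM (vertical axes, linear from 0) of the 10 genes in the mutant-labelled libraries (mut, red) and the wild-type libraries (WT, blue), with bars for the deposited 95% interval of each value. For polo, CycA and bol the intervals of both mutant-labelled libraries lie below those of both wild-type libraries, and stg is below 1 FPKM in all 4.

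Polo kinase gave the largest difference of the 9 genes. The gene polo (3L, 20309654 to 20313466, dm6) had 100 and 103 FPKM in the mutant-labelled libraries, against 179 and 169 FPKM in the wild-type libraries. Both mutant-labelled libraries were well below both wild-type libraries, and their intervals, 90.1 to 110 and 93.1 to 113 FPKM, lay apart from the wild-type intervals of 170 to 189 and 160 to 178 FPKM. Its mean was 102 ± 2.13 FPKM in the mutant-labelled libraries and 174 ± 7.13 FPKM in wild-type testes (SD, n = 2 each), or 58.4% of the wild-type level (log2 fold change -0.77, SE 0.07, limma adjusted p = 0.0105). Leaving out any 1 of the 4 libraries ended the call, as it did for most of the genes called. The log2 fold change of polo then stayed between -0.81 and -0.73. Without wild type replicate 1, the library with high accessory gland markers, it was -0.73.

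The cyclins and their kinase were read next. CycA (3L, 11826719 to 11833578), whose product enters the nucleus of spermatocytes as the first meiotic division begins, had 43.5 and 38.2 FPKM in the mutant-labelled libraries and 60.7 and 59.9 FPKM in the wild-type libraries. The ranges were separate, as were the intervals, of which the highest bound in the mutant-labelled libraries was 50.1 FPKM and the lowest in the wild type 54.7 FPKM. CycA fell to 67.7% of the wild-type level (log2 fold change -0.55, SE 0.10, limma adjusted p = 0.0347). That call was lost after a trend on transcript length was removed (limma adjusted p = 0.0651) and with a variance model that has no trend on level (0.0729). Leaving out any 1 library also ended it, as for most of the genes called, with the log2 fold change between -0.64 and -0.46. An intron of CycA holds CG7264 on the other strand, which shares no exon base with it and was at 234 and 217 FPKM in the mutant-labelled libraries and 169 and 172 FPKM in the wild-type libraries.

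The other cyclins and Cdk1 did not pass the test. CycB (2R, 22803521 to 22806948), the main B-type cyclin and the target of Rbp4, had 63.3 and 71.9 FPKM in the mutant-labelled libraries and 79.1 and 68.2 FPKM in the wild-type libraries, which overlap (log2 fold change -0.12, SE 0.12, limma adjusted p = 0.518). Its log2 fold change ran from -0.23 without wild type replicate 2 to -0.015 without wild type replicate 1, and was -0.03 without mutant replicate 1. CycB3 (3R, 24867934 to 24870816), a B-type cyclin of later steps of division, had 29.6 and 27.9 FPKM in the mutant-labelled libraries and 36.3 and 33.1 FPKM in the wild type. These values did not overlap, but the intervals did (log2 fold change -0.26, SE 0.11, limma adjusted p = 0.161). Cdk1 (2L, 10384739 to 10386262) had 40.5 and 31.4 FPKM in the mutant-labelled libraries and 41.1 and 44.7 FPKM in the wild type, with mutant replicate 1 close to that range (log2 fold change -0.26, SE 0.16, limma adjusted p = 0.314). With the length trend removed the value for Cdk1 moved to -0.46 (limma adjusted p = 0.118), and it was -0.08 without mutant replicate 2 and -0.43 without mutant replicate 1. Cdk1 rested on an estimated 49.3 and 39.5 fragments in the mutant-labelled libraries and 133 and 154 in the wild type, the fewest of the genes with a single listed start.

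The Cdc25 phosphatases stood far apart in level. The meiotic gene twe (2L, 16259414 to 16261877) had 99.7 and 68.9 FPKM in the mutant-labelled libraries, against 99.5 and 98.9 FPKM in the wild-type libraries. Mutant replicate 1 was level with the wild type and mutant replicate 2 was below it, and the intervals of these replicates, 87.9 to 111 and 59.3 to 78.4 FPKM, did not overlap. The difference was within that spread (log2 fold change -0.26, SE 0.20, limma adjusted p = 0.400), and without mutant replicate 2 it was 0.0064. The last 98 exon bases of twe, 4.12% of its exon length, overlap EndoGI on the other strand. EndoGI was listed at 0 FPKM in mutant replicate 1 and at 24.6 FPKM in mutant replicate 2, against 28.3 and 24.8 FPKM in the wild-type libraries, and whether this has a part in the spread of twe was not tested. The mitotic gene stg (3R, 29251826 to 29255800) was listed at 0 and 0.211 FPKM in the mutant-labelled libraries against 0.470 and 0.889 FPKM in the wild-type libraries. Only wild type replicate 2 had an interval above 0, from 0.298 to 1.48 FPKM, so no difference was detectable at this depth and no ratio of twe to stg was taken.

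The inhibitor rux (X, 6035753 to 6037800) had the largest positive difference of the 9 tested genes. It had 104 and 80.9 FPKM in the mutant-labelled libraries and 70.7 and 72.5 FPKM in the wild-type libraries. Both mutant-labelled libraries were above both wild-type libraries, though the interval of mutant replicate 2, from 68.8 to 93.0 FPKM, covered both wild-type values. The difference did not pass the test (log2 fold change 0.35, SE 0.14, limma adjusted p = 0.165), and it came to 0.20 with the length trend removed, to 0.17 without mutant replicate 1 and to 0.53 without mutant replicate 2.

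The RNA-binding regulators differed from each other. The gene bol (3L, 9097629 to 9134405) had 574 and 562 FPKM in the mutant-labelled libraries and 697 and 713 FPKM in the wild-type libraries. The libraries and their intervals were separate, with 607 FPKM as the highest bound in the mutant-labelled libraries and 664 FPKM as the lowest in the wild type. Its mean fell to 568 ± 8.78 FPKM in the mutant-labelled libraries, against 705 ± 11.5 FPKM in wild-type testes (SD, n = 2 each), which is 80.5% of the wild-type level (log2 fold change -0.31, SE 0.05, limma adjusted p = 0.0237). This value hung on the length assigned to bol, whose 9 annotated transcripts run from 289 to 6538 bases. With a trend on the longest transcript removed it turned to 0.09 (limma adjusted p = 0.466), and with a trend on the median transcript of 2294 bases removed it stayed at -0.29 (0.0402). Quantile normalization moved it to -0.59, and the call was lost without a variance trend (0.125). Leaving out any 1 library also ended the call, as for most of the genes called, with the log2 fold change between -0.33 and -0.30.

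Rbp4 (3R, 13654556 to 13656394) had 61.9 and 45.8 FPKM in the mutant-labelled libraries and 45.4 and 50.9 FPKM in the wild-type libraries. Mutant replicate 1 was the highest of the 4 and mutant replicate 2 lay between the wild-type libraries (log2 fold change 0.15, SE 0.18, limma adjusted p = 0.598). Without mutant replicate 1 the sign turned, to -0.07.

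**Figure D2:**
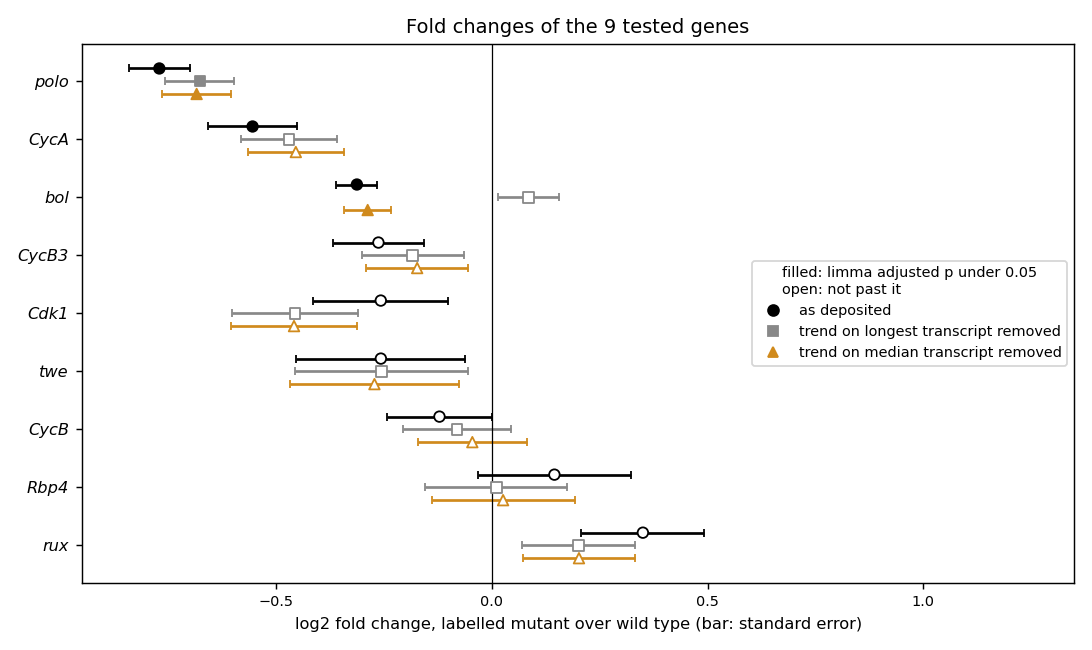
Log2 fold change of the 9 tested genes, labelled mutant over wild type (horizontal axis, bars for the standard error), for the deposited values and after removal of a trend on longest or median transcript length; filled symbols have a limma adjusted p under 0.05. The value of polo stays between -0.77 and -0.68 in the 3 fits, and that of bol changes sign with the longest transcript.

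Transcript length was followed because fold changes moved with it across all genes (Spearman's rho -0.316 over 10750 genes, which are not independent replicates). Apart from bol, the longest transcripts of the 9 other genes were 1082 to 2980 bases. Removal of the trend on longest transcripts moved CycA to -0.47, from -0.55 on the log2 scale. With the trend on longest transcripts removed, polo was the only one of the 9 still called lower (log2 fold change -0.68, limma adjusted p = 0.0169), where 5.7% of all genes were called lower. With the trend on median transcripts removed polo and bol were called, where 5.76% of all genes were.

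FPKM is scaled to length, so levels can be set side by side between genes only as far as the assigned lengths hold. For bol, first in the order, the annotated transcripts run from 289 to 6538 bases. In the wild type the order was bol (705 FPKM), polo (174), twe (99.2), CycB (73.7), rux (71.6), CycA (60.3), Rbp4 (48.1), Cdk1 (42.9), CycB3 (34.7) and stg (0.679). The wild-type libraries of CycB and rux overlapped, and every other pair of neighbours was separate in the wild-type libraries. The intervals of neighbours were separate from bol to polo to twe to CycB, and from CycB3 to stg. Of all genes tested, 98.7% had a lower wild-type mean than bol and 90.9% a lower one than polo, while CycB3 had 67.7% below it. In the mutant-labelled libraries the order began with bol (568 FPKM), polo (102), rux (92.3), twe (84.3) and CycB (67.6), followed by Rbp4 (53.9), CycA (40.8), Cdk1 (36.0), CycB3 (28.8) and stg (0.105). The neighbours polo, rux, twe and CycB overlapped there, as did CycA and Cdk1.

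Ratios between genes within a library do not depend on how that library was scaled, but they still carry the trend on transcript length. With the trend on longest transcripts removed, log2 fold changes were -0.68 for polo, -0.46 for Cdk1, 0.20 for rux and -0.47 for CycA. As deposited they were -0.77, -0.26, 0.35 and -0.55. No ratio was taken with the trend removed. The log2 ratio of CycA to CycB was -0.54 and -0.91 in the mutant-labelled libraries and -0.38 and -0.19 in the wild-type libraries, without overlap. That of polo to Cdk1 was 1.31 and 1.72 in the mutant-labelled libraries and 2.13 and 1.92 in the wild type, also without overlap. The ratio of CycB3 to CycB overlapped, at -1.10 and -1.36 in the mutant-labelled libraries and -1.12 and -1.04 in the wild type. The ratio of rux to CycA, an inhibitor and its target, was chosen after the values were seen. It was 1.25 and 1.08 in the mutant-labelled libraries and 0.22 and 0.27 in the wild-type libraries, a difference of 0.92 between the means. By an exact permutation test, two-sided, no ratio can reach p under 0.33 with 2 libraries against 2.

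**Figure D3:**
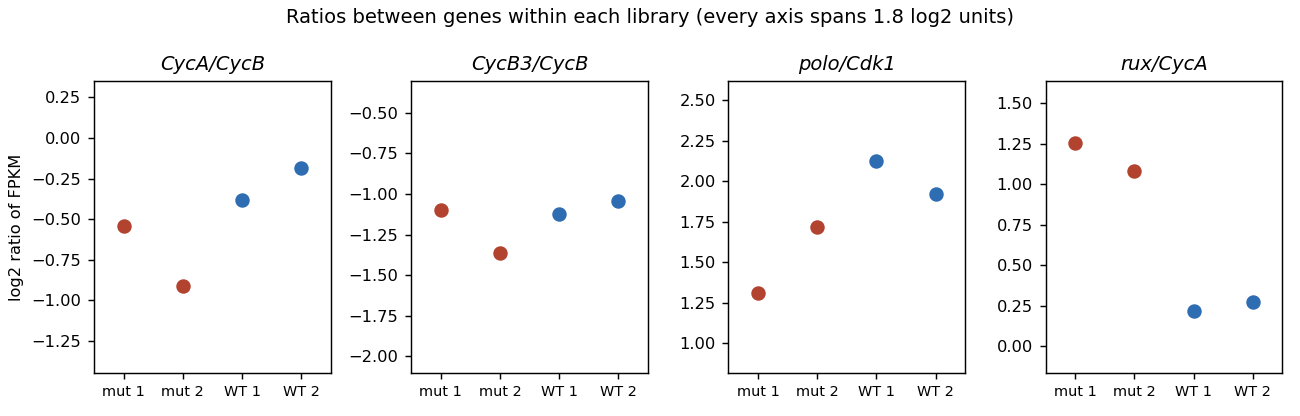
Log2 ratio of the FPKM of 2 genes within each library (vertical axes, each spanning the same range), for the mutant-labelled libraries (mut, red) and the wild-type libraries (WT, blue). The ratio of rux to CycA is 1.08 or more in the mutant-labelled libraries and 0.27 or less in the wild type, and that of CycB3 to CycB overlaps.

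The genes with the most similar values over the 4 libraries, by the root mean square difference of log2(FPKM + 1), lay within 0.015 to 0.09 of each gene. They were CG43800 for polo (0.09), zip, the heavy chain of non-muscle myosin II, for CycA (0.04), CG43343 for bol (0.05), Ucp4B for rux (0.06), CG31360 for twe (0.04), CG9318 for CycB (0.04), CG17129 for CycB3 (0.05), Hexim for Cdk1 (0.06) and CG14260 for Rbp4 (0.015). The measure reads level and difference together.

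Other genes of the same steps were read in 6 lists, of which 74 of 77 genes had a row and 67 were tested. Of the 67, 14 fell and 2 rose, or 20.9% and 2.99%, where 8.67% of all genes tested were called lower and 11.4% higher. Of the 14 that fell, 6 came from the 11 tested genes of the list named spermatocyte translation control. That list holds RNA-binding and translation factors of the male germline, also bam, bgcn, tut and how, and is not limited to spermatocytes. The median log2 fold change of the 67 was -0.26. After removal of the trend on longest transcripts 6 list genes were called lower and 2 higher, or 8.96% and 2.99%, where 5.7% of all genes were called lower and 7.39% higher. No gene of these lists was called when any 1 library was left out, which also ended most calls among all genes tested.

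Regulators of Cdk1 and Polo held 4 genes that fell of 15 tested, and none rose (median log2 fold change -0.30). Among all genes tested 8.67% were lower and 11.4% higher. Wee1, a kinase that places an inhibitory phosphate on Cdk1, had 52.8 and 47.7 FPKM in the mutant-labelled libraries and 76.1 and 75.0 FPKM in the wild-type libraries (log2 fold change -0.58, SE 0.09, limma adjusted p = 0.0253). It shares 12.6% of its exon length with Rat1 on the other strand. Myt1, also of this list and named after its values were seen, was not called (log2 fold change -0.29, limma adjusted p = 0.287). The scaffold subunit gene of phosphatase 2A, Pp2A-29B, had 70.8 and 70.6 FPKM in the mutant-labelled libraries and 109 and 99.98 FPKM in wild-type testes (-0.55, limma adjusted p = 0.0222). Its B-type regulatory subunit gene tws had 33.2 and 30.7 FPKM in the mutant-labelled libraries and 47.4 and 48.5 FPKM in wild-type testes (-0.57, 0.0278), and did not pass with the length trend removed (0.0805). The Greatwall kinase gene gwl, which acts against that phosphatase and was named after its values were seen, had 8.93 and 9.64 FPKM in the mutant-labelled libraries and 16.1 and 16.5 FPKM in wild-type testes (-0.75, 0.0297). An inhibitor of Cdk1 and the activating kinase polo were both among the genes called lower.

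The anaphase-promoting complex, the ubiquitin ligase that ends division by marking cyclins for destruction, held 1 gene that rose and 1 that fell of 12 tested (median -0.07), shares near those of all genes tested. The gene fzr2, a testis paralog of the activator fzr, rose to 144 and 136 FPKM in the mutant-labelled libraries, against 85.2 and 88.9 FPKM in the wild-type libraries (log2 fold change 0.68, SE 0.07, limma adjusted p = 0.0138). Cdc27, a subunit gene, had 77.5 and 81.1 FPKM in the mutant-labelled libraries and 99.9 and 103 FPKM in wild-type testes (-0.35, limma adjusted p = 0.0450), and did not pass with the length trend removed (0.194). Among 14 genes of the chromosomal passenger complex and the spindle checkpoint only the checkpoint kinase gene Bub1 was called, near the 8.67% of all genes called lower. It fell to 18.8 and 18.9 FPKM in the mutant-labelled libraries, against 37.1 and 40.8 FPKM in wild-type testes (-1.01, limma adjusted p = 0.0132), and passed with the length trend removed (-0.79, 0.0164).

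Of 8 tested G1 to S regulators none passed by limma, where 8.67% of all genes tested were called lower and 11.4% higher. With 8 genes this count is not read as a difference from those shares. None passed at an unadjusted limma p under 0.05 either. Their median log2 fold change was -0.21, and -0.017 with the trend on longest transcripts removed. The most abundant, the repressor gene E2f2, had 37.7 and 30.0 FPKM in the mutant-labelled libraries and 42.4 and 46.2 FPKM in the wild-type libraries, and the retinoblastoma gene Rbf averaged 13.3 FPKM in the mutant-labelled libraries and 13.4 FPKM in the wild type. E2f2 shares 19.9% of its exon length with Mpp6 on the other strand. Rbf2 and Cdk4 had a mean under 1 FPKM and were not tested. Rbf2, named after its values were seen, was listed at 1.83 and 1.34 FPKM in the mutant-labelled libraries and 0 in both wild-type libraries. Of 7 tested genes of the DNA damage checkpoint 1 rose and 2 fell (median -0.45), or 14.3% and 28.6%, where 11.4% and 8.67% of all genes tested did. With the trend on longest transcripts removed 1 rose and none fell (median -0.13), where 7.39% and 5.7% of all genes did. The gene mus304, whose product is the partner of the ATR kinase, rose to 14.2 and 14.2 FPKM in the mutant-labelled libraries, against 6.99 and 6.13 FPKM in wild-type testes (log2 fold change 1.01, SE 0.14, limma adjusted p = 0.0212). Of the kinases, the ATM gene tefu had 4.65 and 5.18 FPKM in the mutant-labelled libraries and 10.1 and 11.1 FPKM in wild-type testes (-0.97, 0.0280). The Chk1 kinase gene grp had 16.1 and 20.0 FPKM in the mutant-labelled libraries and 32.7 and 29.0 FPKM in wild-type testes (-0.74, 0.0438). Neither tefu (0.0842) nor grp (0.0529) passed with the trend on longest transcripts removed, and grp shares 7.31% of its exon length with squ.

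RNA-binding and translation factors of the male germline held 6 genes that fell and none that rose of 11 tested (median -0.48), where 8.67% of all genes were called lower and 11.4% higher. With the trend on longest transcripts removed, 2 of the 11 were called lower (median -0.23), and 3 of the 15 regulators of Cdk1 and Polo (median -0.37). Of all genes 5.7% were called lower in that fit. The initiation factor gene eIF4G2, needed for the meiotic divisions of the male, fell to 211 and 221 FPKM in the mutant-labelled libraries, against 366 and 400 FPKM in the wild-type libraries (log2 fold change -0.82, SE 0.07, limma adjusted p = 0.00996). It stayed called with the length trend removed, at -0.32 (limma adjusted p = 0.0368), and shares 8.56% of its exon length with CG33111 on the same strand. The gene orb2, of the CPEB family that controls poly(A) tails, had 704 and 733 FPKM in the mutant-labelled libraries and 1028 and 1097 FPKM in wild-type testes (-0.56, 0.0122), and shares 14.8% of its exon length with CG43783. The hnRNP gene Syp had 644 and 724 FPKM in the mutant-labelled libraries and 1078 and 1181 FPKM in wild-type testes (-0.72, 0.0156). The other genes called, how, orb and bgcn, were named after their values were seen and had log2 fold changes of -0.98, -0.38 and -0.51. With a trend on the longest transcript removed only how and eIF4G2 were called, while orb turned to a log2 fold change of 0.13, orb2 moved to -0.08 and Syp to -0.23. Those called with a trend on the median transcript removed were how, eIF4G2, orb2 and Syp. The longest transcripts of eIF4G2, orb2, Syp and orb are 8400 to 8899 bases. The partner of Rbp4, fest, listed as CG9975, had 541 and 611 FPKM in the mutant-labelled libraries and 694 and 780 FPKM in the wild type and was not called (-0.35, 0.0741); it too was named after its values were seen.

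**Figure D4:**
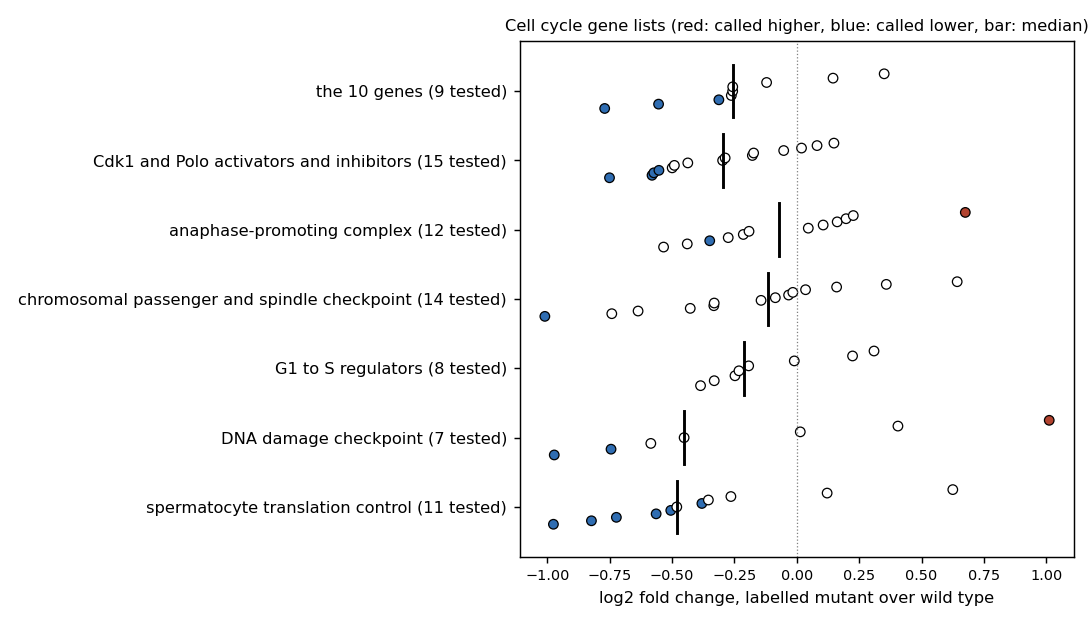
Log2 fold change of each tested gene, labelled mutant over wild type (horizontal axis), for the 10 genes and 6 lists of cell cycle and translation control genes (rows). Red and blue symbols are called higher and lower at a limma adjusted p under 0.05, and bars are list medians. The medians run from -0.07 for the anaphase-promoting complex to -0.48 for the list named spermatocyte translation control.

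Markers of cell types were read beside these values. Of 7 spermatid and sperm genes only Mst87F was called higher, where 11.4% of all genes tested were. It was at 12608 and 11433 FPKM in the mutant-labelled libraries and 7070 and 6218 FPKM in the wild-type libraries (log2 fold change 0.86, limma adjusted p = 0.0122). The summed level of the 7 genes was 17767 and 16638 FPKM in the mutant-labelled libraries, against 12275 and 11334 FPKM in the wild type. Without Mst87F the other 6 summed to 5158 and 5205 FPKM in the mutant-labelled libraries and 5205 and 5116 FPKM in the wild type, which overlap. Of these 6, Mst35Ba was higher (log2 fold change 0.16) and fzo lower (-0.31) at an unadjusted limma p under 0.05. None of 4 tested germline markers and none of 4 tested cyst and hub markers passed by limma. At an unadjusted limma p under 0.05 the germline gene can was higher (log2 fold change 0.43) and the cyst gene zfh1 lower (-0.64). Of all genes tested 19.7% passed that cutoff as higher. With the trend on longest transcripts removed the log2 fold changes of can and zfh1 were 0.52 and -0.25. The summed cyst and hub level was 45.1 and 44.3 FPKM in the mutant-labelled libraries and 44.0 and 38.9 FPKM in the wild type. Within that sum the means of tj, which was not tested, zfh1 and upd1 were lower in the mutant-labelled libraries. Those of eya and Fas3 were higher. Muscle markers summed to 167 and 222 FPKM in the mutant-labelled libraries and 168 and 166 FPKM in the wild type, and fat body markers to 10.04 and 14.1 FPKM in the mutant-labelled libraries and 11.4 and 11.9 FPKM in the wild type. Neither of the 2 tested fat body markers passed by limma, and at an unadjusted limma p under 0.05 Lsp2 was higher (log2 fold change 1.07) and apolpp, listed as Rfabg, lower (-0.74). With the trend on longest transcripts removed apolpp moved to -0.16 and Lsp2 to 1.08. Lsp2 shares 84.6% of its exon length with asRNA:CR11538 on the other strand. The part of cell makeup in the values of polo, CycA and bol was not tested.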

How the data were processed

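The sample titles gave 2 genotypes with 2 libraries each. The authors deposited FPKM per gene with the bounds of the Cufflinks 95% interval, per the file headers. TopHat, Cufflinks and build dm6 are named in the submitters' processing notes, and no source used here gives settings, annotation or strandedness. Of 16745 rows, the 380 with a repeated name were summed. Fragments were estimated as the square of FPKM over its standard error (upper bound minus FPKM, divided by 2), assuming counting error alone, and no count model was run. The test was limma 3.58.1 in R 4.3.3 (lmFit, eBayes with trend) on log2(FPKM + 1) where the mean of the 4 libraries reached 1 FPKM, and the procedure was tested on simulated data. Fold changes on this scale understate those of low genes. The 14 alternatives changed the pseudocount, filter, scaling, length trend (loess, longest or median Ensembl transcript), variance model, replicate block and libraries. The 10 genes, the lists and the rule for named genes were chosen with earlier results of these data known. That rule took from each list up to 3 called genes with the smallest adjusted p, or else the 2 most abundant. Names were matched to Ensembl genes for 16257 of 16510 names, and loci are those of the files, counted from 1.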

Additional observations from a re-analysis of the deposited data

How the results depend on the processing

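Of 14 alternatives, 10 changed a processing choice and 4 left out 1 library each. The call of polo held in all 10 of the former kind (limma adjusted p = 0.00349 to 0.0425). With a trend on longest transcripts removed, 794 genes were called higher and 613 lower (1229 and 935 as reported), and 1 of the 10 genes and 8 list genes were called (3 and 16 as reported); CycA was at -0.47 and bol reversed to 0.085. With a trend on median transcripts removed, an alternative chosen after seeing the data, the genes called were 792 and 619, and CycA was at -0.45. Without a variance trend they were 494 and 609, with 1 of the 10 genes and 7 list genes called, and CycA and bol at unchanged values of -0.55 and -0.31 were not called.

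With the replicate block 1075 genes were higher and 596 lower and 10 list genes were called, and CycA (-0.55, limma adjusted p = 0.0515) was not. Deviations of same-numbered libraries from their group means correlated at -0.05 over the genes tested, so no pairing by number showed across genes. A pairing in only some genes was not tested. Quantile normalization gave 829 higher and 982 lower.

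Leaving out 1 library gave 0 to 12 genes higher and 0 to 251 lower, and 0 of the 10 genes and 0 list genes were called. The log2 fold changes then ran from -0.81 to -0.73 for polo, -0.64 to -0.46 for CycA, -0.33 to -0.30 for bol, -0.52 to 0.0064 for twe and -0.069 to 0.36 for Rbp4. Depth differed with genotype and cannot be told apart from it.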
